A study of Homo sapiens with 8 samples.

Results

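The tetraspanins are a family of small membrane proteins, and the genes described here are the rows of the deposited expression table named TSPAN followed by a number, together with CD9, CD37, CD53, CD63, CD81, CD82 and CD151. The rule found 29 of 18902 genes, 22 with a TSPAN number and 7 with a CD name. The sequenced RNA came from hepatocellular carcinoma cells of human origin, the lines MHCC-97H and MHCC-97L, whose names stand for high and low metastatic potential. The 4 groups, with 2 libraries each, were MHCC-97H with Flag-OGT, MHCC-97H control, MHCC-97L with Flag-OGT and MHCC-97L control. Flag-OGT is wild-type, full-length human O-GlcNAc transferase, the enzyme that puts single sugar residues on nuclear and cytosolic proteins, with a Flag tag at its C-terminus. It was delivered by a lentiviral vector that also carries luciferase, followed by drug selection, per the labels. The labels give no genotype for the other libraries, here the controls, and do not say whether those cells carry an empty vector or whether any cells are a single clone. Levels are FPKM, the deposited fragment counts scaled to transcript length and library size, so that levels of different genes can be set side by side.

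Tetraspanins cross the membrane several times and carry a large extracellular loop through which they bind other surface proteins. They gather integrins, immunoglobulin-family proteins and proteases into membrane patches often called tetraspanin webs, and several of them are packed into extracellular vesicles. In liver the family is known for CD81, a receptor that hepatitis C virus uses to enter hepatocytes, and in carcinoma for members tied to metastasis, such as CD151, TSPAN8 and the metastasis suppressor CD82.

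The Flag-OGT libraries stood apart from the controls over the whole transcriptome. Across 13553 tested genes, log2(FPKM + 1) values correlated with r of 0.725 to 0.753 between states of the same line, 0.957 to 0.963 between lines in the same state and 0.997 to 0.999 between replicates. OGT was at 59.0 and 58.4 FPKM with Flag-OGT in MHCC-97H, against 32.5 and 34.2 in its controls, and in MHCC-97L at 51.0 and 54.5 FPKM with Flag-OGT, against 45.7 and 43.9 in its controls. Hepatocyte markers were low with Flag-OGT. APOA1 and APOA2 were nonetheless not lower than in controls of MHCC-97H (averages of 0.625 against 0.360 FPKM, and 0.225 FPKM in both groups). In MHCC-97L APOA2 averaged 0.570 FPKM with Flag-OGT against 0.445 FPKM in controls. The sum over the marker list was 1.03 to 1.70 FPKM with Flag-OGT in MHCC-97H, against 22.7 to 22.8 FPKM in controls. In MHCC-97L it was 1.82 to 4.55 FPKM with Flag-OGT, against 108 to 109 FPKM in controls. Of 8 such genes, 0 averaged 1 FPKM or more in MHCC-97H with Flag-OGT, against 4 in its controls, and 1 in MHCC-97L with Flag-OGT, against 7 in its controls, and TTR was listed at 0 in both Flag-OGT groups. Whatever else separates the Flag-OGT from the control libraries cannot be told apart from Flag-OGT itself in this design, so the changes below are differences between labelled libraries. In such bulk RNA, fewer cells that express a gene and less RNA per cell cannot be told apart either.

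The summed level of the 29 tetraspanins was lower with Flag-OGT, and another gene led it. In MHCC-97H the sum was 950 and 948 FPKM with Flag-OGT, against 1667 and 1687 FPKM in the controls. In MHCC-97L it was 978 and 960 FPKM with Flag-OGT, against 1935 and 1938 FPKM in controls. This was 0.158% to 0.179% of all FPKM in the Flag-OGT libraries and 0.325% to 0.345% in the controls, with no overlap. The sum is weighted to its most abundant genes, so a lower sum does not mean that each member fell. In MHCC-97H, CD63 alone averaged 173 FPKM with Flag-OGT against 894 FPKM in controls. In MHCC-97L it averaged 228 FPKM with Flag-OGT against 982 FPKM in controls. CD81 had the highest level of the family in each of the 4 Flag-OGT libraries, and CD63 in each of the 4 controls. CD81 made up 33.4% ± 0.421 of the tetraspanin FPKM with Flag-OGT and 2.77% ± 0.349 in the controls of MHCC-97H, and 34.5% ± 0.0451 against 2.58% ± 0.000292 in MHCC-97L (SD, n = 2 each). For CD63 these shares were 18.3% ± 0.524 against 53.3% ± 1.35 in MHCC-97H and 23.5% ± 0.252 against 50.7% ± 0.190 in MHCC-97L (SD, n = 2 each).

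**Figure D1:**
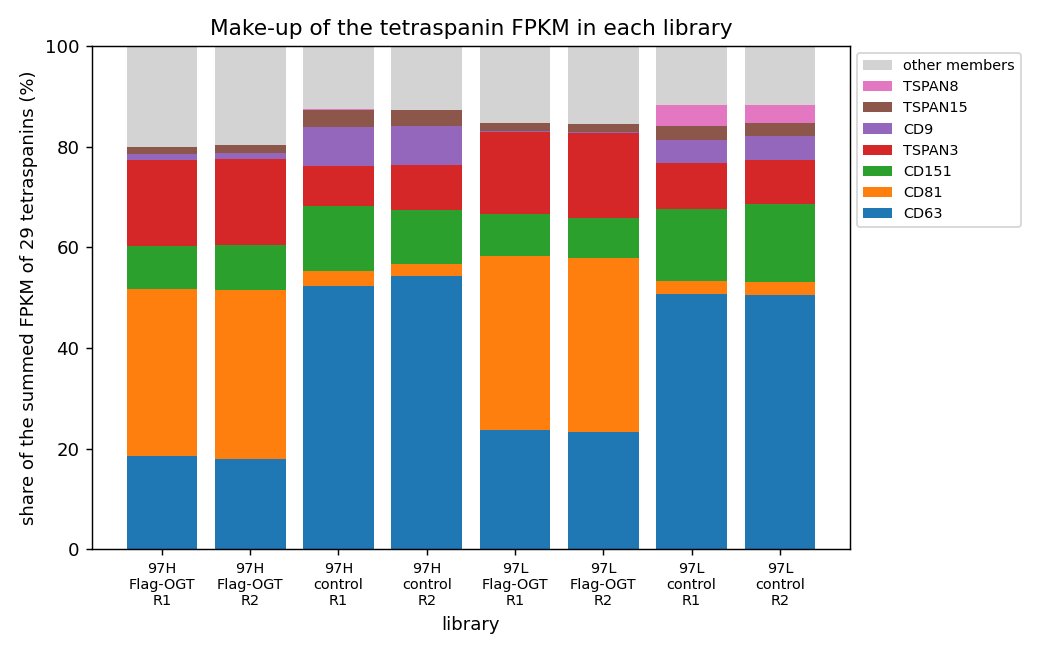
Share of each named gene in the summed FPKM of 29 tetraspanins (vertical axis, percent), 1 bar per library. The CD63 block at the foot of each bar is larger in the controls (53.3% and 50.7% on average), while the CD81 block is wide only with Flag-OGT (33.4% and 34.5%).

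Of the 29 members, 23 reached a mean of 0.5 FPKM over the 8 libraries and were tested. TSPAN1, TSPAN2, TSPAN8 and TSPAN18 passed this filter through their high state alone, so they had to differ. In MHCC-97H, 11 of 23 (47.8%) were higher and 11 (47.8%) lower with Flag-OGT (limma, adjusted p under 0.05), while 48.2% of all tested genes were higher and 36.3% lower (84.6% in either direction). In MHCC-97L, 6 (26.1%) were higher and 12 (52.2%) lower, against 50.1% and 34.7% of all tested genes (84.8% in either direction). The median log2 change over the tested members was 0.05 in MHCC-97H and -0.64 in MHCC-97L, beside 0.15 and 0.19 over all tested genes. With a change of at least 2-fold required as well, 5 were higher and 7 lower in MHCC-97H (22.3% and 16.0% of all tested genes), and 5 were higher and 11 lower in MHCC-97L (18.6% and 16.1%). Median-of-ratios scaling put the median of all tested genes at 0.01 and 0.03. No label says that replicates were separate cultures, and the p-values therefore cover the spread among libraries alone, possibly a technical one.

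**Figure D2:**
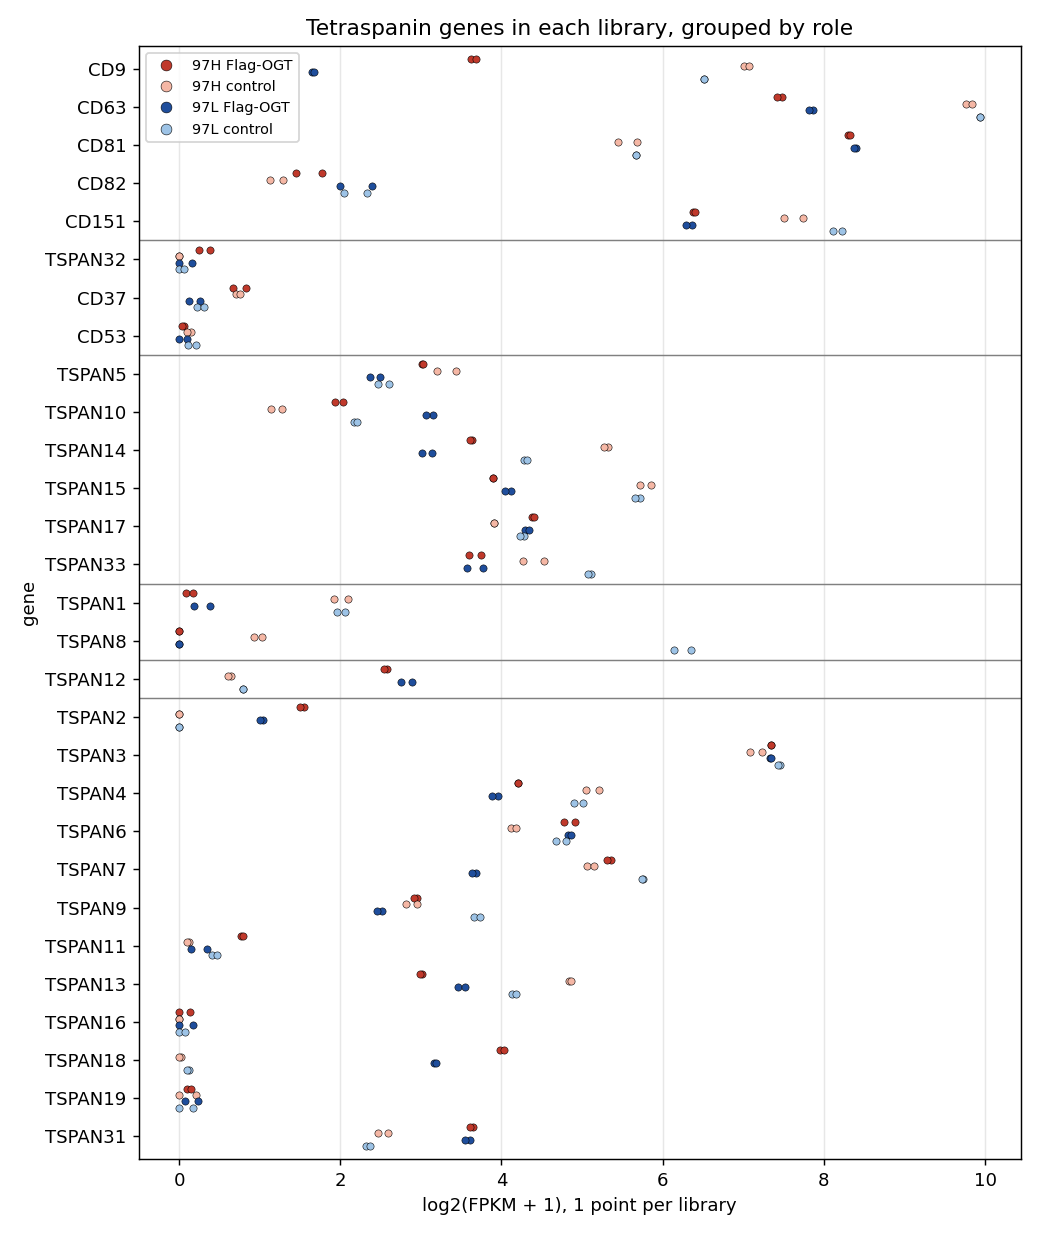
Level of each of the 29 tetraspanins as log2(FPKM + 1) (horizontal axis), 1 point per library, with genes grouped by role between the grey lines. Replicates lie close together; CD9, CD63 and CD151 lie further left and CD81 further right with Flag-OGT, and 6 genes stay near 0 in all groups.

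Of 5 broadly expressed tetraspanins of vesicles and surface webs, MHCC-97H had 2 that rose and 3 that fell, and MHCC-97L had 1 that rose and 3 that fell; with 84.6% and 84.8% of all tested genes called, these numbers of calls are near the background. CD9, which acts in adhesion, migration and gamete fusion and is a common vesicle marker, was at 11.4 and 11.9 FPKM with Flag-OGT in MHCC-97H, against 128 and 133 FPKM in the controls. The MHCC-97L libraries had 2.13 and 2.20 FPKM with Flag-OGT, against 90.0 and 90.5 FPKM in controls. It fell by 3.39 ± 0.05 on the log2(FPKM + 1) scale in MHCC-97H (SE; limma, adjusted p = 5.6e-12) and by 4.85 ± 0.05 in MHCC-97L (adjusted p = 1.2e-12). The fall was deeper in MHCC-97L by the test of the difference (1.46 ± 0.08, MHCC-97H minus MHCC-97L, adjusted p = 3.7e-07).

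CD63, a resident of late endosomes and lysosomes that is sorted onto the inner vesicles of multivesicular bodies, stayed among the abundant transcripts in every library. Its level was 177 and 170 FPKM with Flag-OGT in MHCC-97H, against 872 and 915 FPKM in controls, and 231 and 224 FPKM with Flag-OGT in MHCC-97L, against 983 and 980 FPKM in controls. The groups did not overlap in either line. CD63 fell by 2.36 ± 0.05 in MHCC-97H (adjusted p = 2.4e-11), and its log2 change was -2.10 ± 0.05 in MHCC-97L (adjusted p = 6.3e-11). The fall was slightly deeper in MHCC-97H (-0.25 ± 0.07, adjusted p = 0.00863), a call lost without MHCC-97H Flag-OGT replicate 2 (adjusted p = 0.0558) and with quantile normalization (-0.16, adjusted p = 0.0785).

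CD81, the hepatitis C virus receptor, went the other way. It was at 314 and 319 FPKM with Flag-OGT in MHCC-97H, against 50.4 and 42.6 FPKM in controls, and in MHCC-97L at 337 and 331 FPKM with Flag-OGT, against 49.9 and 50.01 FPKM in controls. The rise was 2.75 ± 0.07 in MHCC-97H (adjusted p = 1.2e-10) and 2.72 ± 0.07 in MHCC-97L (adjusted p = 1.5e-10). The test of the difference between lines gave 0.03 ± 0.10 (adjusted p = 0.812). Within a library, where scaling has no part, the ratio of CD81 to CD63 FPKM was 1.46 to 1.88 in the Flag-OGT libraries and 0.0466 to 0.0577 in the controls. The ratio of CD81 to CD9 was 26.9 to 27.7 with Flag-OGT against 0.320 to 0.393 in MHCC-97H, and 151 to 158 against 0.553 to 0.555 in MHCC-97L.

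CD151, the tetraspanin that binds laminin-binding integrins most firmly, was lower with Flag-OGT. It was at 82.0 and 83.6 FPKM with Flag-OGT in MHCC-97H, against 214 and 180 FPKM in controls, and in MHCC-97L at 81.3 and 77.1 FPKM with Flag-OGT, against 277 and 299 FPKM in controls. The log2 change was -1.23 ± 0.08 in MHCC-97H (adjusted p = 1.3e-07) and -1.85 ± 0.08 in MHCC-97L (adjusted p = 6.4e-09). The tested difference of the changes was 0.61 ± 0.11 (adjusted p = 9.4e-04).

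CD82, also known as the metastasis suppressor KAI1, was low throughout. It was at 1.73 and 2.42 FPKM with Flag-OGT in MHCC-97H, against 1.19 and 1.45 FPKM in controls, and in MHCC-97L at 2.98 and 4.26 FPKM with Flag-OGT, against 3.13 and 4.04 FPKM in controls. The rise in MHCC-97H was 0.40 ± 0.15 (adjusted p = 0.0340). This call was lost without MHCC-97H Flag-OGT replicate 2 (0.24, adjusted p = 0.247) or control replicate 1 (0.32, adjusted p = 0.159), with no filter (adjusted p = 0.121), and with median-of-ratios (adjusted p = 0.102) or quantile scaling (0.10, adjusted p = 0.559). In MHCC-97L the groups overlapped, with a log2 change of 0.00 ± 0.15 (adjusted p = 0.981).

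**Figure D3:**
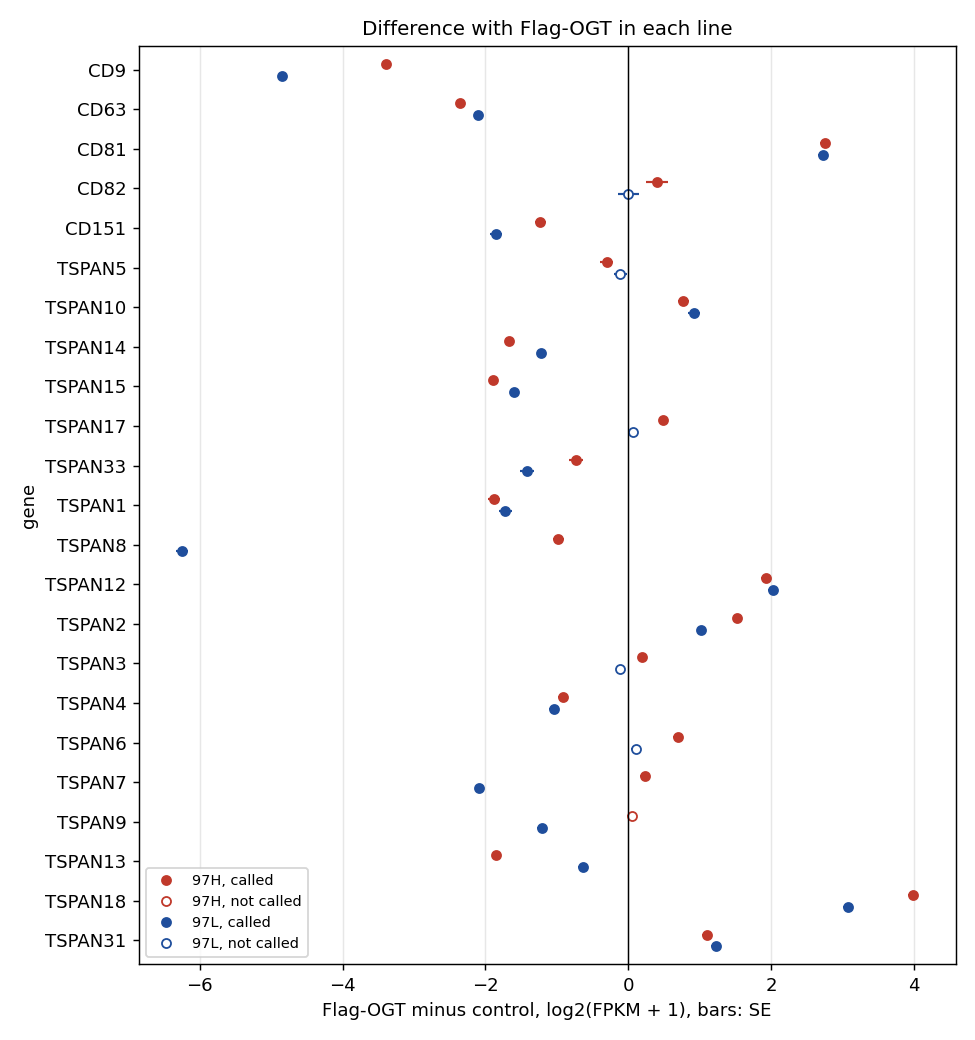
Flag-OGT minus control on the log2(FPKM + 1) scale (horizontal axis) for the 23 tested members in MHCC-97H (red) and MHCC-97L (blue); bars are SE and open points were not called. CD81 lies at 2.75 and 2.72, CD9 at -3.39 and -4.85, and TSPAN7 on opposite sides of 0 (0.23 and -2.09); TSPAN8 with Flag-OGT and TSPAN2 in the controls are listed at 0, so their points give no fold.

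A further group of tetraspanins, called TspanC8 for the cysteines in their large loop, carries the protease ADAM10 to the cell surface. All 6 were tested. MHCC-97H had 2 that rose and 4 that fell, and MHCC-97L had 1 that rose and 3 that fell, beside 84.6% and 84.8% of all tested genes called in either direction. TSPAN15 and TSPAN14 fell in both lines and TSPAN10 rose in both. TSPAN15 was at 13.9 FPKM in each Flag-OGT library of MHCC-97H, against 56.8 and 51.6 FPKM in controls, and in MHCC-97L at 16.4 and 15.5 FPKM with Flag-OGT, against 51.5 and 49.4 FPKM in controls. Its log2 change was -1.89 ± 0.06 in MHCC-97H (adjusted p = 8.6e-10) and -1.60 ± 0.06 in MHCC-97L (adjusted p = 3.5e-09). TSPAN14 was at 11.5 and 11.2 FPKM with Flag-OGT in MHCC-97H, against 39.0 and 37.7 FPKM in controls, and in MHCC-97L at 7.82 and 7.09 FPKM with Flag-OGT, against 18.5 and 19.0 FPKM in controls. These were log2 changes of -1.67 ± 0.06 and -1.22 ± 0.06 (adjusted p = 2.1e-09 and 2.8e-08). TSPAN10, known from pigment cells, was the least abundant of the 6 in the controls. It rose to 2.83 and 3.10 FPKM with Flag-OGT in MHCC-97H, against 1.43 and 1.21 FPKM in controls, and to 7.86 and 7.36 FPKM with Flag-OGT in MHCC-97L, against 3.49 and 3.62 FPKM in controls. The log2 changes of TSPAN10 were 0.77 ± 0.08 (adjusted p = 4.9e-06; 0.48 with quantile normalization) and 0.92 ± 0.08 (adjusted p = 1.3e-06).

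Smaller or line-dependent changes were seen in the other TspanC8 genes. TSPAN33, studied in blood cells, was at 11.1 and 12.4 FPKM with Flag-OGT in MHCC-97H, against 18.3 and 22.0 FPKM in controls, and in MHCC-97L at 12.6 and 10.9 FPKM with Flag-OGT, against 33.6 and 32.6 FPKM in controls. Its log2 changes were -0.73 ± 0.10 (adjusted p = 5.1e-05) and -1.42 ± 0.10 (adjusted p = 2.6e-07). TSPAN17 was at 19.9 and 20.2 FPKM with Flag-OGT in MHCC-97H, against 14.0 FPKM in each control, a log2 change of 0.49 ± 0.06 (adjusted p = 1.3e-05) that was 0.32 with median-of-ratios scaling. In MHCC-97L TSPAN17 had 18.6 and 19.2 FPKM with Flag-OGT, against 18.4 and 17.9 FPKM in controls. This gave 0.06 ± 0.06 (adjusted p = 0.366), which turned to -0.06 with a common sum and to -0.13 with median-of-ratios scaling (adjusted p = 0.0367). TSPAN5 was at 7.06 and 7.13 FPKM with Flag-OGT in MHCC-97H, against 8.17 and 9.78 FPKM in controls. That was a log2 change of -0.30 ± 0.09 (adjusted p = 0.0123), lost without Flag-OGT replicate 1 (adjusted p = 0.0579) or control replicate 2 (-0.18, adjusted p = 0.103). With median-of-ratios scaling it was -0.46. In MHCC-97L TSPAN5 was at 4.16 and 4.65 FPKM, against 5.10 and 4.54 FPKM in controls, with overlapping groups (-0.11 ± 0.09, adjusted p = 0.297; -0.27 and adjusted p = 0.0139 with median-of-ratios scaling).

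TSPAN1 and TSPAN8 are both found in epithelia and in carcinomas, and TSPAN8 has been tied to tumour cell migration. On the log2(FPKM + 1) scale TSPAN8 was the member with the widest spread between group means. It was listed at 0 in all 4 Flag-OGT libraries, against 0.90 and 1.04 FPKM in controls of MHCC-97H and 80.9 and 69.4 FPKM in those of MHCC-97L. The decrease was called in both lines (adjusted p = 1.6e-06 in MHCC-97H and 2.6e-12 in MHCC-97L); no fold is given against a group listed at 0. TSPAN1 was at 0.06 and 0.13 FPKM with Flag-OGT in MHCC-97H, against 2.80 and 3.27 FPKM in controls, and in MHCC-97L at 0.14 and 0.31 FPKM with Flag-OGT, against 3.18 and 2.89 FPKM in controls. The log2 changes of TSPAN1 were -1.88 ± 0.09 (adjusted p = 1.8e-08) and -1.72 ± 0.09 (adjusted p = 4.2e-08). With a pseudocount of 0.1 the changes were -4.03 and -3.32. TSPAN1 passed the filter through its control libraries alone and TSPAN8 through the MHCC-97L controls alone, so the states had to differ. Markers of simple epithelium were lower with Flag-OGT. The sum over KRT8, KRT18, EPCAM and CDH1 was 27.0 to 27.8 FPKM with Flag-OGT in MHCC-97H, against 5358 to 5601 FPKM in controls. In MHCC-97L it was 18.8 to 29.3 FPKM with Flag-OGT, against 6228 to 6267 FPKM in controls. KRT8 (3846 and 4134 FPKM on average) and KRT18 (1630 and 2111 FPKM) made up most of the control sums of MHCC-97H and MHCC-97L. CDH1 had smaller log2 changes (-0.44 and -0.57), and EPCAM was too low to be tested. Of the 4 markers, 3 averaged 1 FPKM or more in MHCC-97H with Flag-OGT and 3 in its controls, 2 in MHCC-97L with Flag-OGT and 3 in its controls, and 0 were listed at 0 in both libraries of a group; their part in the changes of TSPAN1 and TSPAN8 was not tested.

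TSPAN18, TSPAN12 and TSPAN2 were near or at 0 in the controls and present with Flag-OGT. TSPAN18, known from endothelium, where it regulates the calcium channel protein Orai1, was at 14.8 and 15.3 FPKM with Flag-OGT in MHCC-97H, against 0.02 and 0 FPKM in controls. The MHCC-97L libraries had 7.96 and 8.13 FPKM, against 0.09 and 0.07 FPKM in controls. It rose by 3.99 ± 0.07 (adjusted p = 6.5e-12) and 3.07 ± 0.07 (adjusted p = 4.2e-11), or 7.11 and 5.50 with a pseudocount of 0.1, so the size depends on that constant. TSPAN18 passed the filter through its Flag-OGT libraries alone, so its states had to differ. Markers of endothelium were lower in the same libraries: the sum over 5 such genes was 0.660 to 0.830 FPKM with Flag-OGT in MHCC-97H, against 33.5 to 33.7 FPKM in controls, and 1.48 to 1.57 FPKM with Flag-OGT in MHCC-97L, against 44.1 to 46.4 FPKM in controls. With Flag-OGT 0 of these 5 averaged 1 FPKM or more in MHCC-97H and 1 in MHCC-97L, against 3 and 2 in the controls of these lines, and CDH5 was listed at 0 in both Flag-OGT groups. ESAM alone made up most of the control sums (26.5 and 36.5 FPKM on average in MHCC-97H and MHCC-97L). The sum over 6 fibroblast markers was 19.7 to 19.9 FPKM with Flag-OGT in MHCC-97H, against 9.06 to 12.2 FPKM in controls, and 14.6 to 15.4 FPKM with Flag-OGT in MHCC-97L, against 4.52 to 5.28 FPKM in controls; 2 of the 6 averaged 1 FPKM or more in each Flag-OGT group and 1 in each control group. The list did not move as one: ACTA2 (4.05 and 3.19) and COL1A1 (2.24 and 2.60) were called higher in MHCC-97H and MHCC-97L, while LUM was called lower (-3.40 and -2.39). LUM was at 0.0350 ± 0.0212 FPKM with Flag-OGT and 10.0 ± 2.15 FPKM without it in MHCC-97H, and at 0.0400 ± 0.0566 against 4.48 ± 0.679 FPKM in MHCC-97L (SD, n = 2 each). ACTA2 and COL1A1 passed the filter through their Flag-OGT libraries alone and LUM through its controls alone, so their states had to differ. DCN, too low to be tested, averaged 0.0400 FPKM with Flag-OGT and 0.545 FPKM in controls of MHCC-97H. COL1A2 was listed at 0 in all groups but the MHCC-97L controls, and the part of these markers in the rise of TSPAN18 was not tested.

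TSPAN12, which helps the receptor Frizzled-4 respond to Norrin in retinal vessels, was at 4.96 and 4.85 FPKM with Flag-OGT in MHCC-97H, against 0.57 and 0.52 FPKM in controls. In MHCC-97L its level was 6.42 and 5.76 FPKM, against 0.73 and 0.74 FPKM in controls. Its log2 changes came to 1.93 ± 0.07 (adjusted p = 2.1e-09; 2.96 with a pseudocount of 0.1) and 2.03 ± 0.07 (adjusted p = 1.7e-09). TSPAN2, known from oligodendrocytes, was listed at 0 in all 4 controls, with 1.93 and 1.82 FPKM with Flag-OGT in MHCC-97H and 1.05 and 1.00 FPKM in MHCC-97L. Both increases were called (limma, adjusted p = 5.6e-09 and 1.5e-07). TSPAN2 passed the filter through its Flag-OGT libraries alone, so its states had to differ. In these 5 genes, TSPAN1, TSPAN2, TSPAN8, TSPAN12 and TSPAN18, one state lay under 1 FPKM in each of its 4 libraries while at least 2 libraries of the other state reached 1 FPKM.

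The 250 bases before the transcription start are shown for TSPAN1 and TSPAN8, which fell, and TSPAN2, which rose, since these genes were near 0 in one state. The sequences are those of RefSeq on GRCh38.p14, whereas the submitters' processing notes name hg19; 21 of the 29 members had an entry, and windows that lie within the bounds of the gene itself, as that of TSPAN12 does, are not shown. Each reads 5′ to 3′ on the strand of the gene, and capitals mark the GC box, GGGCGG on either strand.
TSPAN1, chr1:46174837-46175086 (+ strand): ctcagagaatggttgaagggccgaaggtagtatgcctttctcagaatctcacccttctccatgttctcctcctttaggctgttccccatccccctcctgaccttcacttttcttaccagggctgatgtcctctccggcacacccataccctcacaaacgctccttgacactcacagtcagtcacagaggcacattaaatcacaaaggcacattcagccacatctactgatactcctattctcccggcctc
TSPAN8, chr12:71158000-71158249 (- strand): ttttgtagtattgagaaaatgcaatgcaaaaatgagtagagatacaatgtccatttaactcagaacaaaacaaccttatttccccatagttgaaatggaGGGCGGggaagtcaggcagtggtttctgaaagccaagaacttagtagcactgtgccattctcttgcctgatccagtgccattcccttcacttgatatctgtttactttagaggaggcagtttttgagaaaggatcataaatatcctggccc
TSPAN2, chr1:115089504-115089753 (- strand): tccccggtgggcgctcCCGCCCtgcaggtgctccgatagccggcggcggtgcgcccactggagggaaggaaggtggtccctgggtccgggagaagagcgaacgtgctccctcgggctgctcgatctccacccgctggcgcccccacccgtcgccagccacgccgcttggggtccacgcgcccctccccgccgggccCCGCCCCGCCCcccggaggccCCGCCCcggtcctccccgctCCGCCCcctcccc

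The windows differ in base composition. The TSPAN2 window has 79.2% G and C and 30 CpG dinucleotides, more than in 87.6% of 34943 promoter windows of this length, with 5 GC boxes. The TSPAN1 window has 51.2% G and C with 4 CpG, and the TSPAN8 window 40.8% with 1 CpG. The window of TSPAN12, which rose like TSPAN2, has 50.8% with 8 CpG and 0 GC boxes. Its G and C share is below that of TSPAN1, which fell, while its CpG count is above those of TSPAN1 and TSPAN8. A link between base composition and the direction of change was not tested. The medians over all windows were 58.0% and 11 CpG. A GC box occurs in 42.5% of all windows, 1 time in the TSPAN8 window shown and 0 times in that of TSPAN1. The letters TATAAA (10.8% of all windows), TGANTCA of AP-1 (6.59%), the HNF1 motif (0.298%) and GGAGGAGG from the ZNF263 motif (9.47%) were searched on both strands and are not in any of these 4 windows. Only GC boxes were found, so no overlap between motifs arises.

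The remaining TSPAN genes showed both shared and line-specific differences. TSPAN13 fell in both lines, to 7.06 and 6.91 FPKM with Flag-OGT in MHCC-97H, against 27.5 and 28.1 FPKM in controls, and to 10.0 and 10.7 FPKM with Flag-OGT in MHCC-97L, against 16.5 and 17.1 FPKM in controls. The log2 changes of TSPAN13 came to -1.85 ± 0.06 (adjusted p = 6.9e-10) and -0.64 ± 0.06 (adjusted p = 3.0e-06), and they differed (-1.21 ± 0.08, adjusted p = 2.2e-06). TSPAN4, which builds migrasomes on the retraction fibres of moving cells, was at 17.5 FPKM in each Flag-OGT library of MHCC-97H, against 35.97 and 32.2 FPKM in controls, and in MHCC-97L at 14.5 and 13.7 FPKM with Flag-OGT, against 28.99 and 31.3 FPKM in controls. The log2 changes of TSPAN4 were -0.92 ± 0.07 (adjusted p = 4.9e-07) and -1.04 ± 0.07 (adjusted p = 2.0e-07).

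TSPAN7, a neuronal tetraspanin whose loss causes X-linked intellectual disability, was the member with opposite called changes in the lines. It was at 40.0 and 38.7 FPKM with Flag-OGT in MHCC-97H, against 32.4 and 34.6 FPKM in controls, and in MHCC-97L at 11.8 and 11.4 FPKM with Flag-OGT, against 53.2 and 52.4 FPKM in controls. The rise in MHCC-97H was 0.23 ± 0.06 (adjusted p = 0.00360), which was 0.05 with median-of-ratios scaling (adjusted p = 0.449), and the fall in MHCC-97L was -2.09 ± 0.06 (adjusted p = 2.2e-10). The changes differed by 2.32 ± 0.08 (adjusted p = 3.2e-08). TSPAN9, known from platelets, was at 6.74 and 6.56 FPKM in MHCC-97H with Flag-OGT, against 6.77 and 6.05 FPKM in controls, with overlapping groups (0.05 ± 0.07, adjusted p = 0.547). In MHCC-97L it fell to 4.73 and 4.51 FPKM, against 11.7 and 12.3 FPKM in controls (-1.21 ± 0.07, adjusted p = 8.2e-08), and the difference was called (1.26 ± 0.10, adjusted p = 5.2e-06).

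TSPAN3, one of the most abundant members, differed little. It was at 162 FPKM in each Flag-OGT library of MHCC-97H, against 135 and 149 FPKM in controls, and in MHCC-97L at 160 and 162 FPKM with Flag-OGT, against 175 and 171 FPKM in controls. The change in MHCC-97H was 0.19 ± 0.06 (adjusted p = 0.00933); it was 0.13 with a common sum (adjusted p = 0.0501), 0.00 with median-of-ratios scaling (adjusted p = 0.945), 0.31 with quantile normalization, 0.12 without control replicate 1 and lost without Flag-OGT replicate 2 (adjusted p = 0.0515). In MHCC-97L it was -0.11 ± 0.06 (adjusted p = 0.0997), and -0.22 or -0.30 with a common sum or median-of-ratios scaling (adjusted p = 0.00389 and 4.8e-04). TSPAN6, a regulator of endosomal sorting, rose in MHCC-97H to 29.2 and 26.5 FPKM, against 16.3 and 17.2 FPKM in controls (0.70 ± 0.07, adjusted p = 4.3e-06). MHCC-97L had 27.5 and 28.2 FPKM with Flag-OGT, against 26.9 and 24.6 FPKM in controls (0.11 ± 0.07, adjusted p = 0.155; -0.08 with median-of-ratios scaling). The difference between its changes was 0.59 ± 0.10 (adjusted p = 5.4e-04).

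TSPAN31 rose in both lines, to 11.5 and 11.2 FPKM with Flag-OGT in MHCC-97H, against 4.52 and 5.01 FPKM in controls, and to 11.2 and 10.7 FPKM with Flag-OGT in MHCC-97L, against 3.98 and 4.17 FPKM in controls. Its log2 changes came to 1.10 ± 0.07 (adjusted p = 1.1e-07) and 1.23 ± 0.07 (adjusted p = 5.3e-08). In the GENCODE v29 annotation 28.2% of its exon bases lie opposite exons of CDK4, a cell cycle kinase, and the sources used here do not say whether counting used strand, so reads of both genes cannot be told apart there. CDK4 itself was at 186 ± 5.20 FPKM with Flag-OGT and 216 ± 3.85 FPKM in MHCC-97H controls, and at 155 ± 0.537 with Flag-OGT against 142 ± 2.79 FPKM in controls of MHCC-97L (SD, n = 2 each). TSPAN18 shares 1.68% of its exon bases with TP53I11 on the opposite strand, and TSPAN7 shares 34.5% with AF241726.2 on the same strand.

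The 6 untested members were low in every library. TSPAN11 reached 0.71 and 0.73 FPKM with Flag-OGT in MHCC-97H, against 0.09 and 0.07 FPKM in controls, while MHCC-97L had 0.27 and 0.11 FPKM with Flag-OGT, against 0.33 and 0.39 FPKM in controls. CD37, a leukocyte tetraspanin, was at 0.78 and 0.59 FPKM with Flag-OGT in MHCC-97H, against 0.63 and 0.69 FPKM in controls, and in MHCC-97L at 0.09 and 0.20 FPKM with Flag-OGT, against 0.17 and 0.24 FPKM in controls. CD53 and TSPAN32, likewise of leukocytes, and TSPAN16 and TSPAN19 stayed at 0 to 0.31 FPKM. Of 10 leukocyte markers, 2 averaged 1 FPKM or more in each Flag-OGT group and 4 in each control group. Their sum was 4.19 to 4.45 FPKM with Flag-OGT in MHCC-97H, against 82.4 to 84.9 FPKM in controls, and 9.29 to 10.1 FPKM with Flag-OGT in MHCC-97L, against 84.9 to 85.7 FPKM in controls. CD68 alone made up most of the control sums (78.6 ± 1.65 and 63.6 ± 0.205 FPKM, SD, n = 2 each), and the T-cell genes CD3D and CD3E were listed at 0 in all groups but the MHCC-97L controls.

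Neighbouring members did not always move together. On chromosome 11, CD151 and TSPAN4, with 1 protein-coding gene between them in RefSeq, both fell in both lines. CD82 and TSPAN18 have 0 protein-coding genes between them; CD82 was called in MHCC-97H alone, and not under every setting, while TSPAN18 rose in both lines. CD81 and TSPAN32 are likewise adjacent; CD81 rose in both lines, while TSPAN32 was at most 0.31 FPKM. Chromosome 11 holds 6 of the 29 members and chromosome 12 holds 7.

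Genes that work with tetraspanins were counted in the same way, beside 48.2% higher and 36.3% lower among all tested genes in MHCC-97H and 50.1% and 34.7% in MHCC-97L, with medians of 0.15 and 0.19. These lists were drawn up with earlier results of these data known, so their counts are descriptive and were not tested against all genes. They include genes, such as CD44, that passed the filter through a single state. CD44 stands in both the surface partner list and the ADAM10 list. Of 21 tested surface partners, 4 were higher and 17 lower with Flag-OGT in MHCC-97H, with a median log2 change of -1.57, and 3 were higher and 15 lower in MHCC-97L, with a median of -1.61. The highest change in both lines was in IFITM1, an interferon-induced antiviral protein that binds CD81. It was at 20.8 ± 0.0212 FPKM with Flag-OGT and 0.340 ± 0.0707 FPKM without it in MHCC-97H, and at 12.8 ± 0.240 with Flag-OGT against 1.76 ± 0.219 FPKM in controls of MHCC-97L (SD, n = 2 each). The lowest was in MET, the hepatocyte growth factor receptor, at 5.76 ± 0.219 with Flag-OGT against 856 ± 57.8 FPKM in controls of MHCC-97H and 3.40 ± 0.332 with Flag-OGT against 513 ± 12.4 FPKM in controls of MHCC-97L. The laminin-binding integrin subunits that pair with CD151, chosen here after their values were seen, all fell. The log2 change was -4.62 in MHCC-97H and -4.89 in MHCC-97L for ITGA3, -3.56 and -3.20 for ITGA6, and -5.09 and -5.14 for ITGB4, each beside -1.23 and -1.85 for CD151; these sizes were not tested against each other.

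Of ADAM10 and its substrates, 10 were tested; 3 were higher and 7 lower in MHCC-97H (median -0.55; 48.2% and 36.3% of all tested genes), and 2 were higher and 7 lower in MHCC-97L (median -0.79; 50.1% and 34.7%). ADAM10, the protease itself (a choice made with its values known), was at 3.08 ± 0.0212 with Flag-OGT against 15.3 ± 1.00 FPKM in controls of MHCC-97H, and at 2.62 ± 0.0495 with Flag-OGT against 13.3 ± 0.163 FPKM in controls of MHCC-97L (SD, n = 2 each). NOTCH3, a Notch receptor, had the highest change, at 22.0 ± 0.0424 with Flag-OGT against 0.0550 ± 0.0212 FPKM in controls of MHCC-97H and 5.80 ± 0.297 with Flag-OGT against 0.245 ± 0.0354 FPKM in controls of MHCC-97L. CD44, the hyaluronan receptor, had the lowest, at 0.250 ± 0.0283 with Flag-OGT against 126 ± 4.18 FPKM in controls of MHCC-97H and 0.110 ± 0.0990 with Flag-OGT against 71.4 ± 1.32 FPKM in controls of MHCC-97L. NOTCH3 passed the filter through its Flag-OGT libraries alone and CD44 through its controls alone, so their states had to differ.

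Of 16 tested genes of vesicle formation and release, 4 were higher and 12 lower in MHCC-97H (median -0.94; 48.2% and 36.3% of all tested genes), and 3 higher and 10 lower in MHCC-97L (median -0.64; 50.1% and 34.7%). RAB31, which drives vesicle formation without ESCRT proteins, had the highest change in both lines (6.26 ± 0.141 with Flag-OGT against 0.0750 ± 0.0212 FPKM in controls of MHCC-97H and 5.10 ± 0.0778 with Flag-OGT against 0.235 ± 0.0212 FPKM in controls of MHCC-97L). The lowest was RAB27B, which docks multivesicular bodies for release, in MHCC-97H, at 0.0350 ± 0.0212 FPKM with Flag-OGT against 12.1 ± 1.28 FPKM in controls. In MHCC-97L it was the proteoglycan SDC1, at 5.26 ± 0.410 FPKM with Flag-OGT against 104 ± 3.24 FPKM in controls. RAB31 passed the filter through its Flag-OGT libraries alone and RAB27B through its controls alone, so their states had to differ. Among 5 late endosome and lysosome membrane genes, where CD63 also resides, 0 were higher and 4 lower in MHCC-97H and 1 was higher and 3 lower in MHCC-97L; the lowest were NPC1 (-1.55) in MHCC-97H and LAMP2 (-1.54) in MHCC-97L, and the highest called were LAMP1 (-0.24) and MCOLN1 (0.52). Of the 4 tetraspanins outside the naming rule, the uroplakin gene UPK1B had log2 changes of -2.82 ± 0.08 and -3.53 ± 0.08 and the photoreceptor gene ROM1 of -0.83 ± 0.11 and -1.69 ± 0.11 in MHCC-97H and MHCC-97L, while UPK1A and PRPH2 were too low to be tested.

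**Figure D4:**
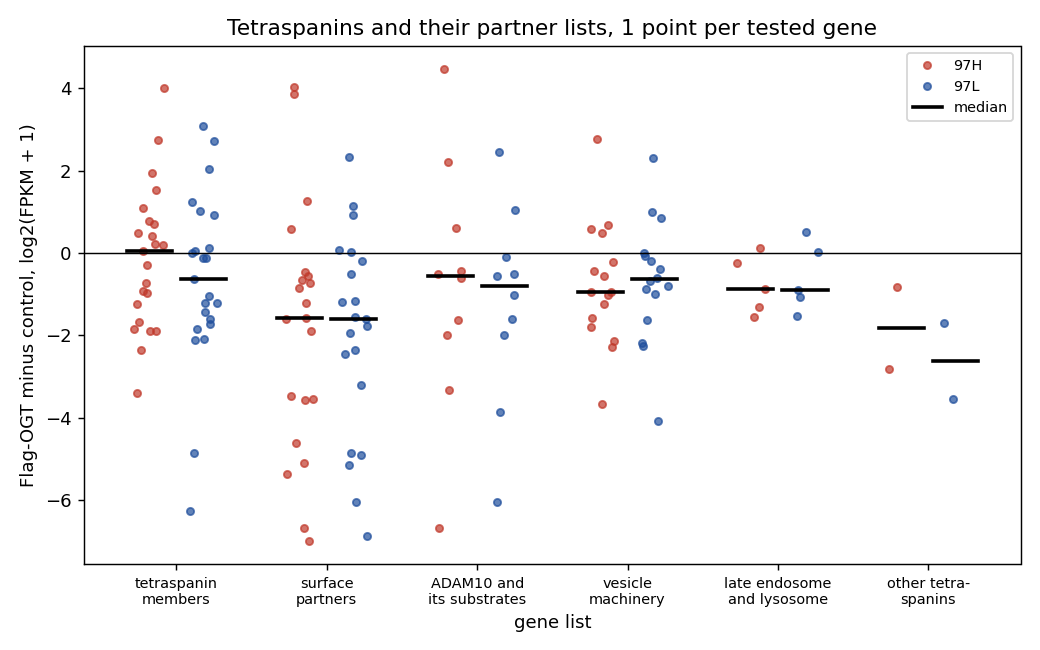
Flag-OGT minus control on the log2(FPKM + 1) scale (vertical axis) for every tested gene of the tetraspanins and of 5 partner lists in MHCC-97H (red) and MHCC-97L (blue); black lines are medians. The tetraspanin medians are 0.05 and -0.64 with points on both sides of 0, and those of the surface partners are -1.57 and -1.61. The lists were chosen with earlier results of these data known.

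The lines themselves differed in several members. Among controls, 5 of 23 tested members (21.7%) were higher and 11 (47.8%) lower in MHCC-97H than in MHCC-97L, beside 26.5% and 38.9% of all tested genes (65.4% in either direction; 4674 higher and 4230 lower genes with a common sum and 4502 and 4018 with quantile normalization, against 3589 and 5270). At least 2-fold, the counts were 0 and 1, beside 2.19% and 5.45%. TSPAN8 stood apart from the rest, with 0.90 and 1.04 FPKM in controls of MHCC-97H, against 80.9 and 69.4 FPKM in controls of MHCC-97L (-5.27 ± 0.08, adjusted p = 3.9e-10). It passed the filter through the MHCC-97L controls alone, so the control lines had to differ in it. The next in size were TSPAN14, higher in MHCC-97H (1.00 ± 0.06, adjusted p = 7.8e-07), and CD82 and TSPAN10, lower in it (-0.98 ± 0.15, adjusted p = 3.5e-04, and -0.97 ± 0.08, adjusted p = 3.4e-06). CD9 was higher in MHCC-97H (0.53 ± 0.05, adjusted p = 2.0e-05), while CD151 was lower (-0.55 ± 0.08, adjusted p = 1.8e-04). TSPAN5 (0.77 ± 0.09) was also called higher in MHCC-97H, and TSPAN33 (-0.69 ± 0.10), TSPAN6 (-0.59 ± 0.07), TSPAN17 (-0.35 ± 0.06) and TSPAN3 (-0.28 ± 0.06; not called with quantile normalization, adjusted p = 0.0587) lower. For CD63 the difference of -0.14 ± 0.05 (adjusted p = 0.0304) was not called under another scaling (0.00 with a common sum, 0.03 with quantile normalization), without either MHCC-97H Flag-OGT library, either MHCC-97L control, or MHCC-97H control replicate 1 (-0.14 to -0.10, adjusted p = 0.0581 to 0.118). For TSPAN31 the difference of 0.18 ± 0.07 (adjusted p = 0.0395) was lost without either MHCC-97H Flag-OGT library, either MHCC-97L control, or MHCC-97H control replicate 2 (0.12 to 0.21, adjusted p = 0.0701 to 0.192), and with the replicate number as a block (adjusted p = 0.0523).

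With Flag-OGT in both lines, 8 of 23 members (34.8%) were higher and 6 (26.1%) lower in MHCC-97H than in MHCC-97L, beside 33.6% and 36.1% of all tested genes (69.7% in either direction). With a common sum, 13 members and 5932 genes were higher, and 3547 genes lower, against 4551 and 4894 genes. At least 2-fold, the counts were 2 and 1, beside 4.24% and 3.59%. CD9 (1.99 ± 0.05, adjusted p = 1.5e-08) and TSPAN7 (1.68 ± 0.06, adjusted p = 3.4e-08) were more than 2-fold higher in MHCC-97H, and TSPAN10 more than 2-fold lower (-1.12 ± 0.08, adjusted p = 1.3e-06). TSPAN18 (0.83 ± 0.07), TSPAN5 (0.58 ± 0.09), TSPAN14 (0.55 ± 0.06), TSPAN2 (0.51 ± 0.06) and TSPAN4 (0.29 ± 0.07) were also called higher in MHCC-97H. CD63 was lower in it (-0.39 ± 0.05, adjusted p = 5.4e-05), as was CD82 (-0.58 ± 0.15, adjusted p = 0.00705), a call lost without MHCC-97H Flag-OGT replicate 1 (-0.42, adjusted p = 0.0703) or MHCC-97L Flag-OGT replicate 2 (-0.38, adjusted p = 0.0781). The calls for TSPAN12 (-0.26 ± 0.07, adjusted p = 0.00866) and TSPAN15 (-0.18 ± 0.06, adjusted p = 0.0251) were lost with a common sum (-0.09 and 0.00), with median-of-ratios scaling (-0.17 and -0.08) and without MHCC-97L Flag-OGT replicate 1, and that for TSPAN15 also without either MHCC-97H Flag-OGT library. CD81 differed by -0.08 ± 0.07 (adjusted p = 0.349), which turned to 0.24 with quantile normalization (adjusted p = 0.0131). TSPAN7, TSPAN9 and TSPAN13 changed sign between the states: TSPAN7 was lower in MHCC-97H among controls (-0.64 ± 0.06, adjusted p = 7.1e-06), as was TSPAN9 (-0.81 ± 0.07, adjusted p = 7.0e-06; 0.45 ± 0.07 with Flag-OGT, adjusted p = 3.3e-04), whereas TSPAN13 was higher among controls (0.70 ± 0.06, adjusted p = 5.9e-06) and lower with Flag-OGT (-0.51 ± 0.06, adjusted p = 3.9e-05). These comparisons share their libraries with those of Flag-OGT against control. The test of the difference of the Flag-OGT changes called 11 members higher (47.8%) and 4 lower (17.4%) in MHCC-97H, beside 33.9% and 29.4% of all tested genes (63.3% in either direction). At least 2-fold, the counts were 4 and 1, beside 9.08% and 3.31%. With quantile normalization the 4 lower calls were 7, beside 4930 lower among all tested genes, against 3979 without it.

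**Figure D5:**
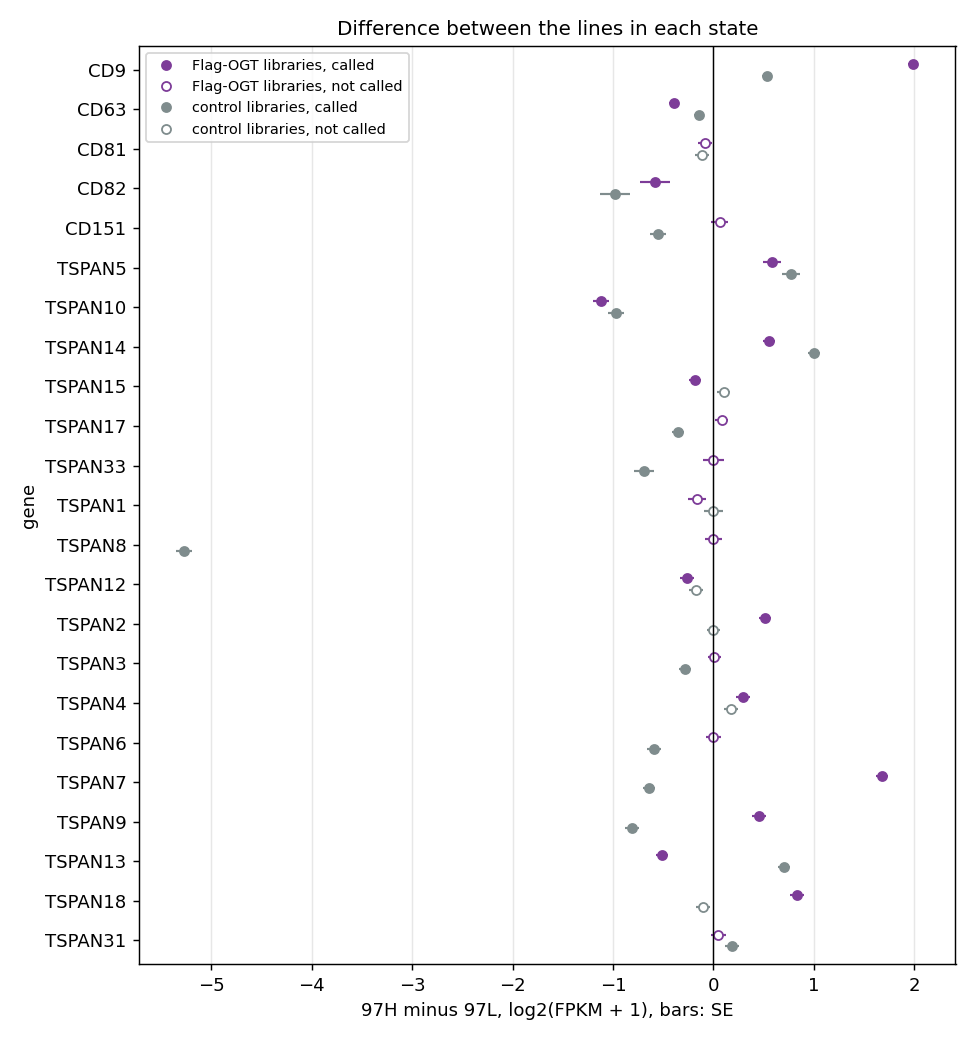
MHCC-97H minus MHCC-97L on the log2(FPKM + 1) scale (horizontal axis) for the 23 tested members, with Flag-OGT (purple) and in controls (grey); bars are SE and open points were not called. TSPAN8 lies at -5.27 in the controls and is listed at 0 in all Flag-OGT libraries, and TSPAN7, TSPAN9 and TSPAN13 lie on opposite sides of 0 in the states.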

How the data were processed

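Values were the gene-level FPKM deposited by the authors, rounded to 2 decimals. The submitters' processing notes name hg19, RSEM 1.2.4, HISAT2 2.1.0, DESeq2 1.18.1 and Bowtie2 without saying which one yielded these values. Read depth is unknown; each library summed to between 510449 and 613101 FPKM. Of 18928 features, 26 with symbols turned into dates were left out. Genes with a mean of at least 0.5 FPKM (13553) were fitted as log2(FPKM + 1) with 4 group means over all 8 libraries in limma 3.58.1 (R 4.3.3), with a variance trend on mean level, leaving 4 residual degrees of freedom. Genes under 0.5 FPKM in every library of a state entered through the other state alone, so their states had to differ. The Benjamini-Hochberg adjustment ran over the 13553 genes, with calls at adjusted p under 0.05. The scale understates changes of low genes. A common sum, median-of-ratios and quantile scaling, other filters and pseudocounts, a replicate block and each library left out were alternatives. The procedure was tested on simulated data. Members, lists and roles were chosen with earlier results of these data known. Named genes were all members, and from partner lists the called gene with the highest and the lowest change in each line, save those said to be chosen after their values were seen. Promoter windows came from RefSeq (GRCh38.p14). Tables and figures used Python 3.11.15, pandas 2.3.3, numpy 2.4.6 and matplotlib 3.10.9.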

Additional observations from a re-analysis of the deposited data

Results flagged for a closer look

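For 15 of the 23 tested members the change with Flag-OGT differed between the lines by the tested difference (MHCC-97H minus MHCC-97L, log2 scale, limma, adjusted p under 0.05), beside 63.3% of all tested genes. CD9 (1.46), CD151 (0.61) and TSPAN33 (0.69) fell in both lines and less in MHCC-97H, whereas CD63 (-0.25), TSPAN14 (-0.45), TSPAN15 (-0.28) and TSPAN13 (-1.21) fell further in MHCC-97H. The TSPAN15 call was lost without either MHCC-97H Flag-OGT library, MHCC-97L Flag-OGT replicate 1 or MHCC-97L control replicate 2 (-0.29 to -0.25, adjusted p = 0.0568 to 0.0710). TSPAN18 (0.93) and TSPAN2 (0.51) rose in both lines and more in MHCC-97H, by 1.61 and 0.81 with a pseudocount of 0.1. TSPAN17 (0.43) and TSPAN6 (0.59) were called higher in MHCC-97H and not called in MHCC-97L, as was TSPAN3 (0.29), whose own call in MHCC-97H depends on scaling. TSPAN9 (1.26) was called lower in MHCC-97L and not called in MHCC-97H. TSPAN7 (2.32) was called higher in MHCC-97H and lower in MHCC-97L. The value for TSPAN8 (5.27) rests on Flag-OGT libraries listed at 0 in both lines and mirrors the difference between the controls, and that for TSPAN2 rests on controls listed at 0.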

How the results depend on the processing

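Leaving out 1 library at a time gave 9 to 11 members higher and 10 to 11 lower with Flag-OGT in MHCC-97H, 6 higher and 12 to 13 lower in MHCC-97L, 11 to 12 higher and 2 to 4 lower for the difference, 4 to 6 higher and 10 to 12 lower between the control lines, and 8 higher and 4 to 6 lower between the Flag-OGT lines. The counts over all tested genes also moved with the library left out. With at least 2-fold required, 5 members were higher and 7 lower in MHCC-97H, beside 22.3% and 16.0% of all tested genes. The counts were 4 and 1 for the difference (9.08% and 3.31% of all tested genes). They were 0 and 1 between control lines (2.19% and 5.45%) and 2 and 1 between Flag-OGT lines (4.24% and 3.59%). Quantile normalization gave 7 lower for the difference, beside 4930 of all tested genes, against 3979 in the main fit. A common sum gave 13 higher between Flag-OGT lines, beside 5932 of all tested genes, against 4551 in the main fit. Over single members, 883 of 920 values with a library left out and 1007 of 1117 under other settings kept direction and side of the threshold. Signs turned as follows; of these values CD63 alone was called as reported, and TSPAN17 with median-of-ratios scaling and CD81 with quantile normalization were called with the turned sign. In MHCC-97H, TSPAN9 was -0.11 with median-of-ratios scaling and -0.04 with quantile normalization, and -0.02 to 0.12 with a library left out. In MHCC-97L, TSPAN17 was -0.06 with a common sum and -0.13 with median-of-ratios scaling, which gave -0.08 for TSPAN6. For the difference, a pseudocount of 0.1 gave 0.04 for TSPAN10 and 0.07 for TSPAN12, a common sum gave 0.02 for TSPAN12, and CD81 ran from -0.09 to 0.15 with a library left out. Between control lines, CD81 was 0.03 with a common sum and -0.22 to 0.01 with a library left out, and quantile normalization gave 0.03 for CD63 and 0.10 for TSPAN12. Between Flag-OGT lines, CD81 was 0.12 with a common sum, 0.03 with median-of-ratios scaling and 0.24 with quantile normalization, which gave -0.01 for TSPAN31. The cause was not tested. Differences between replicates 1 and 2 had correlations of -0.21 to 0.31 between groups, and the labels do not say whether replicate numbers pair the samples. With the replicate block, 11 members were higher and 11 lower in MHCC-97H, and 6 and 12 in MHCC-97L. The counts were 12 and 4 for the difference, 4 and 11 between control lines and 8 and 6 between Flag-OGT lines. Over all tested genes the block gave 6523 higher and 4913 lower in MHCC-97H, and 6778 and 4695 in MHCC-97L. It gave 4587 and 3966 for the difference, 3561 and 5250 between control lines, and 4527 and 4876 between Flag-OGT lines. Unknown depth limits the low members.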
